A study of Homo sapiens with 12 samples.

Results

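The genes described here are the AP-1 subunits and immediate-early factors FOS, FOSB, FOSL1, FOSL2, JUN, JUNB, JUND, ATF3, EGR1 and IER2. They were chosen by name, with earlier results of these data known, and they are 10 of the 23434 genes in the count table. All 10 had enough counts to be tested in every comparison, with 58 counts (FOSB in a shNT with OHT library) as the lowest of any member in any library. Newly made RNA was measured by EU-seq in U2OS-MycER, a line derived from a human osteosarcoma in which Myc is expressed as a fusion with the estrogen receptor (ER), which OHT (4-hydroxytamoxifen) moves into the nucleus. Cells carried a doxycycline-inducible shRNA, either non-targeting (shNT) or against the kinase CDK12 (shCDK12), and all groups received doxycycline at 1 µg/mL. The 4 groups of 3 libraries were shNT, shNT with OHT, shCDK12 and shCDK12 with OHT, with OHT at 300 nM for 40 h. Every group was arrested with nocodazole at 100 ng/mL for 8 h, collected by mitotic shake-off, released for 12 h and given 0.5 mM 5-ethynyl-uridine for the last 2 h. The labels do not say whether the 3 libraries of a group came from separate cultures, so the p-values measure the spread between libraries, which may be technical.

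AP-1 is a dimer of basic leucine zipper proteins that binds short DNA sites, and its composition sets what it does at them. Jun proteins can pair with themselves or with Fos proteins, whereas Fos proteins need a Jun partner. Growth factors and stress switch on FOS, EGR1 and IER2 within minutes through MAP kinases, which act on serum response factor (SRF) and its ternary complex partners at CArG boxes and on other factors at cAMP response elements (CRE). The transcripts of many of these genes are short-lived, so that RNA labelled over 2 h can reflect their decay as well as their transcription.

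Promoter sequences were at hand for 9 members (not FOSL1), in 10 windows because ATF3 has a pair, each of 300 bases around the RefSeq start (build GRCh38.p14). The windows were searched on both strands for the CRE (TGACGTCA), its variant TGACATCA, the AP-1 site (TGACTCA), the CArG box, the TATA element (TATAAA) and the E-box bound by Myc (CACGTG), none of which contains another. Positions are counted from +1 at the start, with no position 0. The 250 bases before the start of 4 members are shown 5′ to 3′, with at least 1 member from each of the patterns of levels described further on. EGR1 and FOS were among the members highest in the shCDK12 libraries, JUN was among those highest in shNT with OHT, and FOSL2 moved opposite to EGR1 and FOS. Capitals mark the CArG boxes of EGR1, the TATA element of FOS and the TGACATCA of JUN.
EGR1: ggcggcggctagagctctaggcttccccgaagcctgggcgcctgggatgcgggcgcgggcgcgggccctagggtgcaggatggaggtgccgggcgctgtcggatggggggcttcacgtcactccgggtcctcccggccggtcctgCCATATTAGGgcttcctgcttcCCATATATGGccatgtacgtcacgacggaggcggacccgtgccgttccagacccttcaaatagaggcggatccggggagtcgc
FOS: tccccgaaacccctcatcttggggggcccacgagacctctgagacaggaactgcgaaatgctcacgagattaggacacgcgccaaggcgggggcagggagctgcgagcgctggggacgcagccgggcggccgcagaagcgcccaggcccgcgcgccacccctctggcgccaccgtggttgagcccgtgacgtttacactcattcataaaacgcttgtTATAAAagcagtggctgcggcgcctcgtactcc
JUN: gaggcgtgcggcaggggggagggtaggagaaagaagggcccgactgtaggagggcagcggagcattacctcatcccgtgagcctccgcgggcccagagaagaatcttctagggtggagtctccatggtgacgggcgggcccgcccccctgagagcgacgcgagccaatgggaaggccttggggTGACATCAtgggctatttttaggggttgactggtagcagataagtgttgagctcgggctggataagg
FOSL2: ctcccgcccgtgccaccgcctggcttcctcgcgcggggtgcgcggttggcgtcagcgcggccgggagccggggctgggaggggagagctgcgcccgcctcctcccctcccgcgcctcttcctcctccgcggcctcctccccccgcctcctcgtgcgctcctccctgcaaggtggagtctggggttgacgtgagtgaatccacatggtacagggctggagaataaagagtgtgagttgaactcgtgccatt

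These lie at chr5:138465229-138465478, plus strand (EGR1), chr14:75278578-75278827, plus strand (FOS), chr1:58784048-58784297, minus strand (JUN) and chr2:28392608-28392857, plus strand (FOSL2). The EGR1 window holds CArG boxes at -105 to -96 and at -83 to -74, and 1.29% of 35116 RefSeq promoters hold at least 1. TGACATCA, present in 2.61% of promoters, lies at -67 to -60 in JUN and at -123 to -116 in 1 window of ATF3. The CRE, present in 1.85%, lies in JUND at -200 to -193, and the AP-1 site, present in 4.95%, lies in FOSL2 at 5 to 11, after the start and outside the stretch shown. TATAAA, present in 11.5%, lies in FOS at -33 to -28, in FOSB, in JUNB and in a window of ATF3. The E-box, present in 7.26% of promoters, was found in 0 of the 10 windows. These matches describe letters in the windows and not binding. Sites further from the start, including any CArG box of FOS or IER2, were not searched.

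Library totals ran from 1251695 to 10447836 counts, with the shNT with OHT group the shallowest (1251695 to 3666406), so values are least precise there. Levels are given in CPM (counts scaled to the library total) with TMM factors. CDK12, the gene the shRNA targets, was at 323, 283 and 311 CPM in shNT and at 306, 279 and 304 CPM in the libraries labelled shCDK12, which overlapped (log2 fold change -0.04 ± 0.09, adjusted p = 0.724). Its 3 values were 454, 364 and 405 CPM in shNT with OHT and, for the label shCDK12 with OHT, 216, 207 and 219 CPM, lower in 3 of 3 libraries (log2 fold change -0.90 ± 0.11, adjusted p = 9.12e-05). In shNT with OHT against shNT CDK12 was higher (0.39 ± 0.12, adjusted p = 0.0347), a call lost without shNT replicate 1 (0.0892), 2 (0.201) or 3 (0.109) or without shNT with OHT replicate 3 (0.091). Counts of CDK12 thus set the shRNA labels apart with OHT and not without it. They are counts of newly made RNA, and total CDK12 RNA and protein were not measured here. The counts therefore cannot show whether CDK12 was silenced or whether any label is wrong. The libraries labelled shCDK12 are named by their label throughout. Of the 8 mesenchymal and osteoblast markers for U2OS, TWIST1 was at or near 0 in every group and COL1A2 was under 2 CPM, while FN1, VIM, COL1A1, SPARC and RUNX2 were well detected. Their summed level was 1575 to 1622 CPM in shNT, 1056 to 1187 in shNT with OHT, 459 to 489 in the libraries labelled shCDK12 and 601 to 633 in those labelled shCDK12 with OHT. The 8 epithelial, blood and liver markers together reached 10.1 to 17.0 CPM in any library.

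By group mean, the members fell into 3 patterns. FOS, FOSB, EGR1, IER2 and ATF3 were highest in the libraries labelled shCDK12 and lowest in shNT. JUN, JUNB, JUND and FOSL1 were highest in shNT with OHT and lowest in the libraries labelled shCDK12 with OHT. FOSL2 stood alone, highest in shNT and lowest in the libraries labelled shCDK12.

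FOS, the founding Fos protein and a strong transactivator, was at 187, 208 and 194 CPM in shNT and at 293, 220 and 282 CPM in shNT with OHT. It was at 624, 545 and 649 CPM in the libraries labelled shCDK12 and at 282, 300 and 270 CPM in those labelled shCDK12 with OHT. Every library labelled shCDK12 lay above all others, every shNT library lay below all others, and the groups with OHT overlapped each other. FOSB, a close relative of FOS, had the lowest count of any member in a single library, with levels of 43.8, 34.2 and 37.9 CPM in shNT and at 50.9, 48.8 and 63.0 CPM in shNT with OHT. Its levels were 173, 187 and 219 CPM in the libraries labelled shCDK12 and 90.9, 88.9 and 73.7 CPM in those labelled shCDK12 with OHT, and no groups overlapped.

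EGR1, a zinc-finger factor that is no AP-1 subunit but is switched on with FOS, had the highest level of the members. It was at 1686, 1292 and 1504 CPM in shNT and at 2179, 2134 and 2241 CPM in shNT with OHT. In the libraries labelled shCDK12 it reached 4385, 4529 and 5023 CPM, and with OHT as well it was at 1980, 2193 and 1743 CPM. The shCDK12 libraries were the highest and the groups with OHT overlapped. IER2, a nuclear protein of the immediate-early class, was at 571, 524 and 543 CPM in shNT, 828, 745 and 815 CPM in shNT with OHT, 1238, 1328 and 1395 CPM under the shCDK12 label and 715, 900 and 704 CPM under the label shCDK12 with OHT. As in EGR1, the shNT libraries were the lowest, the shCDK12 libraries the highest and the groups with OHT overlapped. ATF3, a stress-induced bZIP factor that often represses its targets, was at 273, 254 and 239 CPM in shNT, 695, 665 and 855 CPM in shNT with OHT, 1158, 1182 and 1428 CPM under the shCDK12 label and 753, 847 and 784 CPM under the label shCDK12 with OHT. The same held for ATF3.

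JUN, the Jun protein with the strongest transactivation, was at 720, 717 and 748 CPM in shNT, 904, 852 and 846 CPM in shNT with OHT, 683, 685 and 695 CPM under the shCDK12 label and 510, 582 and 471 CPM under the label shCDK12 with OHT. The groups did not overlap, although shNT and shCDK12 lay close together. JUNB, which can counteract JUN, was at 499, 466 and 611 CPM in shNT, 690, 618 and 694 CPM in shNT with OHT, 432, 521 and 469 CPM under the shCDK12 label and 473, 498 and 373 CPM under the label shCDK12 with OHT. Only shNT with OHT lay apart from the other groups. JUND, the Jun protein that is usually present in resting cells, was at 79.4, 88.5 and 120 CPM in shNT, 167, 186 and 153 CPM in shNT with OHT, 82.8, 122 and 121 CPM under the shCDK12 label and 74.0, 80.5 and 61.1 CPM under the label shCDK12 with OHT. Its shNT with OHT libraries were above all others. JUNB overlaps the gene HOOK2, and the use of strand in the counting is not given in the sources used here, so reads of the pair may not be told apart.

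The genes FOSL1 and FOSL2 encode the Fos-related antigens, which lack the transactivation domain of FOS and are the more lasting partners of Jun in growing cells. FOSL1 was at 663, 522 and 558 CPM in shNT, 1146, 800 and 941 CPM in shNT with OHT, 489, 430 and 518 CPM under the shCDK12 label and 372, 357 and 333 CPM under the label shCDK12 with OHT. Its 4 groups did not overlap. FOSL2 was at 1357, 1361 and 1347 CPM in shNT and at 1095, 913 and 891 CPM in shNT with OHT. It was at 255, 235 and 257 CPM in the libraries labelled shCDK12 and at 596, 599 and 578 CPM in those labelled shCDK12 with OHT, so that its groups did not overlap either and stood in the reverse of the FOS order. FOSL2 overlaps an antisense RNA, FOSL2-AS1, from which its reads cannot be told apart if strand was not used.

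**Figure D1:**
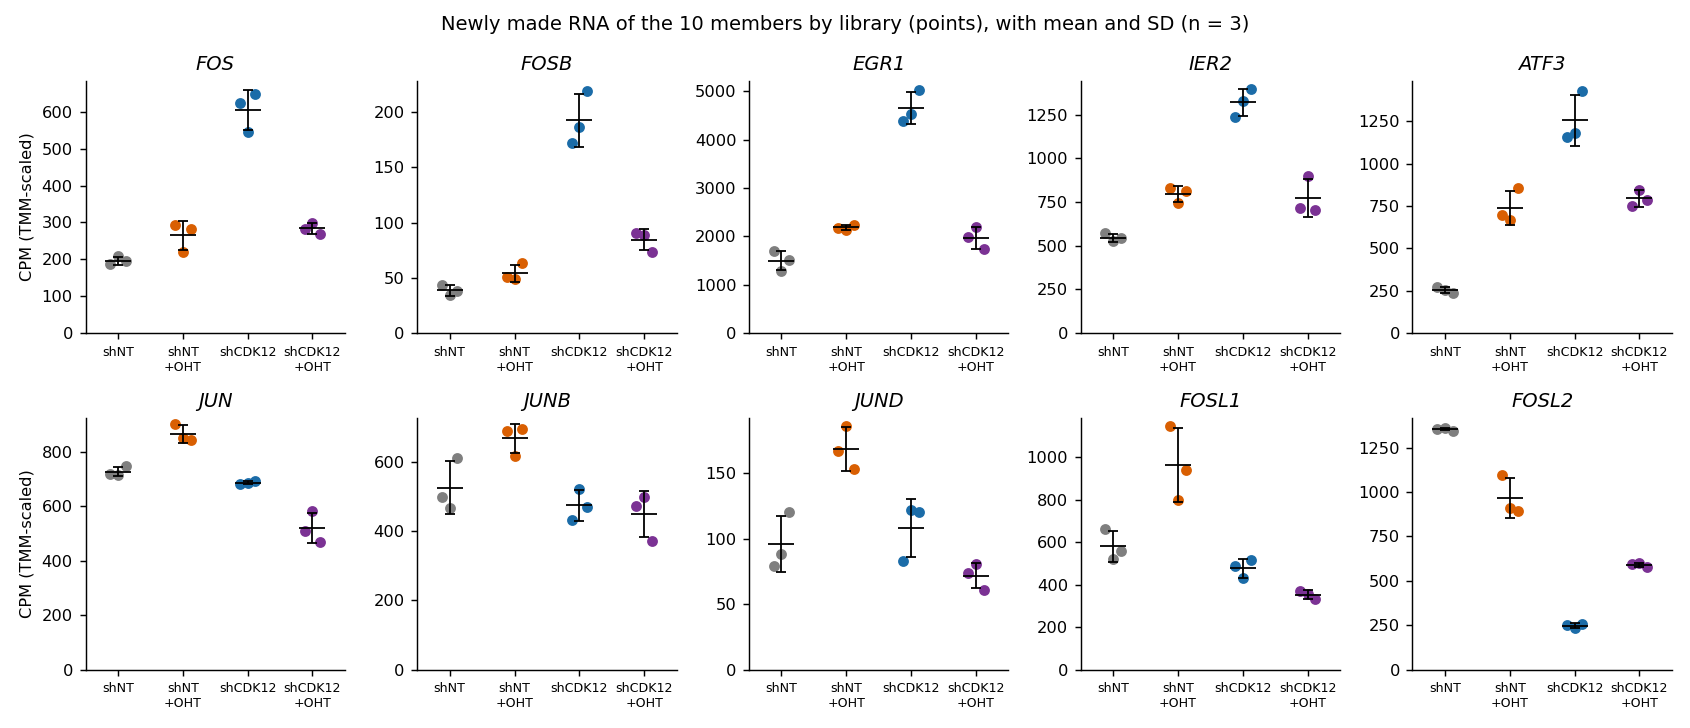
Level of each member (CPM, TMM-scaled, linear axis from 0) in every library, with a point per library, a bar at the group mean and whiskers of 1 SD (n = 3). FOS, FOSB, EGR1, IER2 and ATF3 peak in the libraries labelled shCDK12, JUN, JUNB, JUND and FOSL1 in shNT with OHT, and FOSL2 in shNT.

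The next question was how OHT moved the members in the libraries labelled shNT. In shNT with OHT against shNT, 6 of 10 members rose and FOSL2 fell, against a background of 9.11% of tested genes higher and 8.27% lower. The median log2 fold change of the members was 0.49, beside -0.03 over all genes. The background count depended on single libraries: of 1785 genes called in all, 753, 651 and 824 were called without shNT replicate 1, 2 and 3, 1076 without shNT with OHT replicate 3, and 2568 without its replicate 1. ATF3 moved most (1.5 ± 0.12 on the log2 scale, 2.83-fold, adjusted p = 4.16e-06). JUND rose by 0.79 ± 0.16 on the log2 scale (adjusted p = 0.0051) and FOSL1 by 0.70 ± 0.13 (adjusted p = 0.00271). EGR1 and IER2 rose alike, by 0.52 ± 0.10 (adjusted p = 0.00404) and 0.51 ± 0.10 (adjusted p = 0.00342), and FOSL2 changed by -0.52 ± 0.10 (adjusted p = 0.00297). JUN (0.22 ± 0.10, adjusted p = 0.123), JUNB (0.32 ± 0.12, adjusted p = 0.0763) and FOSB (0.47 ± 0.19, adjusted p = 0.109) did not pass, although their groups did not overlap. In a single fit of all 12 libraries, where 3293 genes were called, JUN (adjusted p = 0.0348), JUNB (0.03) and FOSB (0.0196) passed, and JUNB also passed in DESeq2 (0.0467).

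The call on FOS in this comparison was narrow (0.41 ± 0.13, adjusted p = 0.0411). It was lost without shNT replicate 1 (adjusted p = 0.174), replicate 2 (0.12) or replicate 3 (0.142) and without shNT with OHT replicate 3 (0.141). The calls missed on FOSB and JUNB were gained without shNT with OHT replicate 1 (adjusted p = 0.0354 and 0.0337), and that on JUNB also without replicate 2 (0.0287). Short genes as a class moved the same way as most members: among genes spanning under 10 kb the median was 0.20 with 17.8% called higher, and among those over 100 kb it was -0.23 with 3.17% called higher. Of the members, 8 span under 10 kb, all but FOSL2 and ATF3. With trends in length and GC content removed from each library, ATF3 (1.54), FOSL1 (0.50) and FOSL2 (-0.61) were still called. JUND (0.44, adjusted p = 0.0385) and IER2 (0.27, adjusted p = 0.0493) were called narrowly. EGR1 (0.26, adjusted p = 0.0567), close to IER2, and FOS (0.14, adjusted p = 0.343) were not called, and JUN and JUNB stood at -0.05 and -0.02.

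Next, the libraries labelled shCDK12 were set against shNT, both without OHT. Here 5 members rose and 2 fell, with 31.3% of all tested genes higher and 30.6% lower, so that movement as such was common. The median of the members was 0.75 against 0.01 over all genes. FOSB rose 5.02-fold (log2 2.33 ± 0.12, adjusted p = 1.89e-15) and ATF3 4.93-fold (2.30 ± 0.09, adjusted p = 3.42e-18). EGR1 rose 3.13-fold (1.65 ± 0.08, adjusted p = 7.53e-16), FOS 3.10-fold (1.63 ± 0.09, adjusted p = 4.53e-15) and IER2 2.43-fold (1.28 ± 0.08, adjusted p = 3.97e-14). FOSL2 was 5.42-fold lower (-2.44 ± 0.08, adjusted p = 5.72e-20), the largest fold of any member in any of the 7 comparisons.

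The Jun proteins did not follow. JUN (-0.07 ± 0.07, adjusted p = 0.399), JUNB (-0.13 ± 0.09, adjusted p = 0.227) and JUND (0.23 ± 0.14, adjusted p = 0.164) did not pass. JUND passed without shNT replicate 3 (0.37, adjusted p = 0.0322) or without shCDK12 replicate 1 (0.39, adjusted p = 0.00781), and JUNB passed without shCDK12 replicate 2 (-0.20, adjusted p = 0.0459). FOSL1 changed little, by -0.27 ± 0.09 (adjusted p = 0.0106), and this was lost without shNT replicate 1 (-0.17, adjusted p = 0.13). With length and GC trends removed JUN (-0.17, adjusted p = 0.0273) and JUNB (-0.29, adjusted p = 0.00258) passed as lower. In the same comparison, where 31.3% of all genes rose and 30.6% fell, 9 of 14 S phase genes rose and the other 5 did not pass. Their summed level was 2583 to 2663 CPM in the libraries labelled shCDK12 against 1882 to 2002 in shNT. Of the 6 mesenchymal and osteoblast markers tested, 5 fell. The part of either in the members' values was not tested.

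Shifts in the Fos family between groups can be read without scaling between libraries, as a ratio of counts in the same library. FOS gave 0.145 ± 0.00742 counts per count of FOSL2 in shNT (SD, n = 3) and 0.275 ± 0.0381 in shNT with OHT. The ratio was 2.43 ± 0.106 in the libraries labelled shCDK12 and 0.481 ± 0.0174 in those labelled shCDK12 with OHT. FOSL2 thus had more counts than FOS in every group but the libraries labelled shCDK12, where FOS had more, and the groups did not overlap. Counts are not scaled by gene length, so the ratio compares groups and does not say which gene was higher. Per kilobase of span the mean of FOS was above that of FOSL2 in every group (57.7 against 55.4 CPM in shNT). Per kilobase of exonic length FOS was below FOSL2 in shNT (61.7 against 189) and shNT with OHT (83.2 against 135) and above it in the other groups. FOSL1 per FOSL2 went from 0.429 ± 0.0537 in shNT to 0.993 ± 0.101 in shNT with OHT, 1.92 ± 0.0945 in the libraries labelled shCDK12 and 0.599 ± 0.0243 in those labelled shCDK12 with OHT. EGR1 per JUN was 2.05 ± 0.271, 2.52 ± 0.121, 6.75 ± 0.423 and 3.78 ± 0.0932 in the same order.

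**Figure D2:**
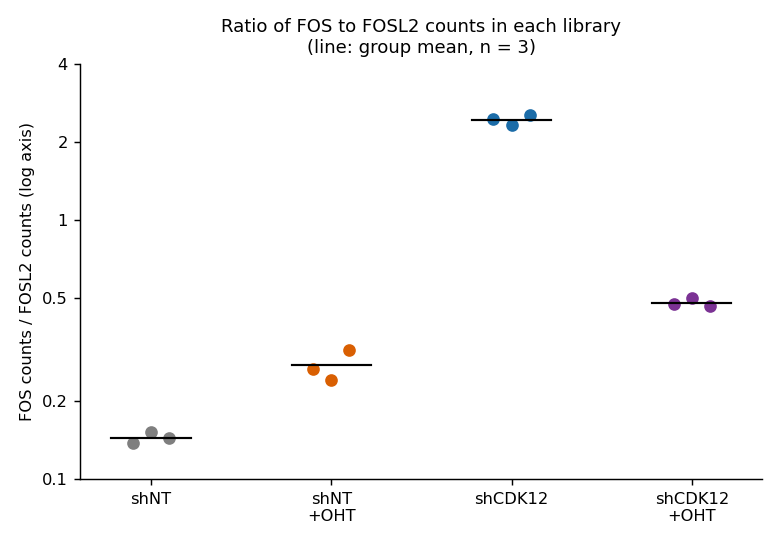
Counts of FOS divided by counts of FOSL2 in each of the 12 libraries (log axis, points) with the group mean as a line (n = 3). The ratio lies between 0.138 and 0.153 in shNT and between 2.32 and 2.53 in the libraries labelled shCDK12, with both groups given OHT between them.

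OHT in the libraries labelled shCDK12 moved most members the other way. In shCDK12 with OHT against shCDK12, 8 of 10 members fell and FOSL2 rose, against a background of 25.5% of genes higher and 23.6% lower, and the median of the members was -0.63 beside 0.02 over all genes. EGR1 (-1.24 ± 0.08, 2.36-fold lower, adjusted p = 1.06e-09), FOSB (-1.18 ± 0.10, adjusted p = 2.12e-08) and FOS (-1.09 ± 0.08, adjusted p = 2.43e-09) changed most among those that fell. IER2 (-0.77 ± 0.09, adjusted p = 8.23e-07), ATF3 (-0.66 ± 0.08, adjusted p = 2.72e-06), JUND (-0.60 ± 0.13, adjusted p = 0.00079), FOSL1 (-0.43 ± 0.08, adjusted p = 0.000182) and JUN (-0.40 ± 0.08, adjusted p = 0.00035) fell too, and JUNB did not pass (-0.08 ± 0.10, adjusted p = 0.504). FOSL2 rose 2.38-fold (1.25 ± 0.07, adjusted p = 1.19e-10). CDK12 itself was lower in this comparison (-0.47 ± 0.08, adjusted p = 3.81e-05). Beside these, 12 of 12 mitotic genes fell, their summed level going from 2820 to 3390 CPM in the libraries labelled shCDK12 to 1628 to 1794 CPM with OHT, and 11 of 14 S phase genes fell; the part of cell cycle position in the members' values was not tested.

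With OHT in both arms, the libraries labelled shCDK12 and shNT differed in newly made CDK12 RNA, and here the Jun proteins and FOSL1 moved rather than FOS. In shCDK12 with OHT against shNT with OHT, 1 member was higher and 5 were lower, with 22.7% of all genes higher and 22.7% lower. FOSL1 fell most (-1.41 ± 0.12, 2.66-fold lower, adjusted p = 1.73e-05), followed by JUND (-1.19 ± 0.14, adjusted p = 0.000108), JUN (-0.70 ± 0.10, adjusted p = 0.000314), FOSL2 (-0.68 ± 0.10, adjusted p = 0.000324) and JUNB (-0.54 ± 0.12, adjusted p = 0.00369). FOSB was higher (0.66 ± 0.15, adjusted p = 0.00499). FOS (0.12 ± 0.12, adjusted p = 0.422), ATF3 (0.13 ± 0.11, adjusted p = 0.354), EGR1 (-0.12 ± 0.10, adjusted p = 0.347) and IER2 (-0.01 ± 0.11, adjusted p = 0.936) did not pass. Genes under 10 kb had a median of -0.23 here and those over 100 kb of 0.27. With length and GC trends removed, JUNB was no longer called (-0.18, adjusted p = 0.137), FOS (0.38, adjusted p = 0.00197) and IER2 (0.28, adjusted p = 0.0354) were called higher, and FOSL1, JUND, JUN and FOSL2 were still called lower. Mitotic genes were lower in 9 of 12 cases, and their part was not tested.

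**Figure D3:**
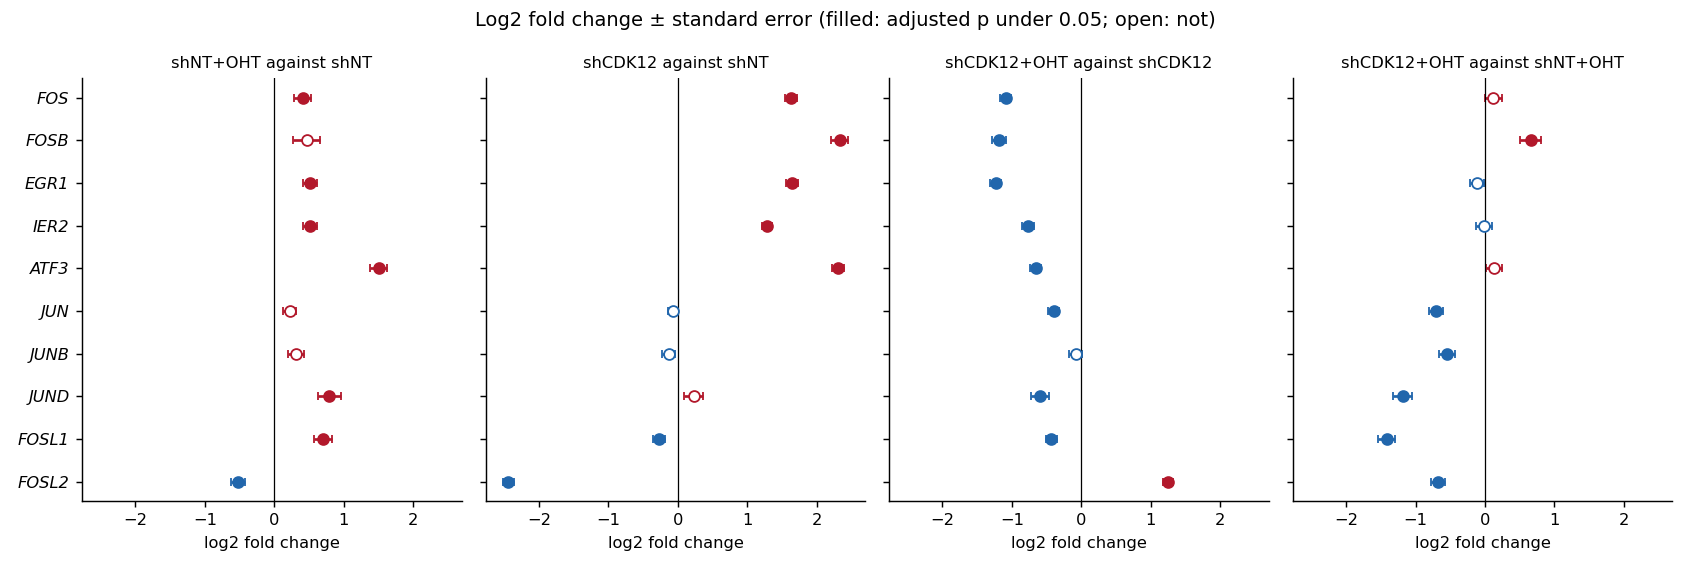
Log2 fold change of each member with its standard error in the 4 comparisons that change 1 factor. Filled points have an adjusted p under 0.05 and open points do not. FOS, FOSB, EGR1, IER2 and ATF3 lie right of 0 in shCDK12 against shNT and left of 0 in shCDK12 with OHT against shCDK12, and FOSL2 does the reverse.

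The interaction term compares the effect of OHT in shNT with that in the shCDK12 libraries, and it passed for 10 of 10 members, 1 higher and 9 lower, with 23.2% of tested genes higher and 21.9% lower. The difference of responses, shCDK12 minus shNT, was largest in ATF3 (-2.19 ± 0.15, adjusted p = 6.56e-10) and smallest in JUNB (-0.43 ± 0.16, adjusted p = 0.0369). It was 1.74 ± 0.13 in FOSL2 (adjusted p = 1.3e-09). The call on JUNB was lost without shNT replicate 1 (-0.40, adjusted p = 0.0899), shNT replicate 2 (-0.35, 0.121), shCDK12 replicate 2 (-0.37, 0.0822), shCDK12 replicate 3 (-0.44, 0.0602), shNT with OHT replicate 3 (-0.41, 0.0709) or shCDK12 with OHT replicate 3 (-0.32, 0.128), and its sign turned with length and GC trends removed (0.08). Genes under 10 kb had a median interaction of -0.28 and those over 100 kb of 0.34. With the trends removed, 9 of 10 members still passed, with JUN at -0.30 (-0.65 before), JUND at -0.83 (-1.42 before) and ATF3 at -2.24. The 2 OHT responses and the 2 shRNA differences share libraries, so no correlation between them is given.

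**Figure D4:**
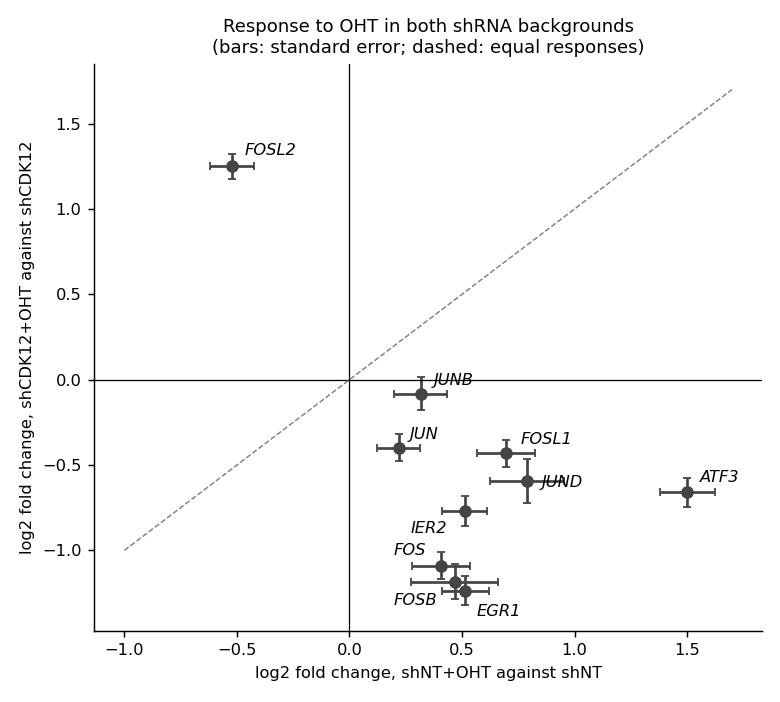
Log2 fold change with OHT in shNT (horizontal) against that in the libraries labelled shCDK12 (vertical) for the 10 members, with standard errors. All points but FOSL2 lie below the dashed line of equal responses, and FOSL2 lies above it.

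Because CDK12 counts did not set the shRNA labels apart without OHT, the members were also compared across both factors. In the libraries labelled shCDK12 with OHT against shNT, where CDK12 was lower (-0.51 ± 0.07, adjusted p = 4.21e-07), 5 members were higher and 5 lower, with 55.9% of all genes called. ATF3 (1.64 ± 0.07), FOSB (1.14 ± 0.11), FOS (0.53 ± 0.07), IER2 (0.51 ± 0.08) and EGR1 (0.41 ± 0.08) were higher, with adjusted p from 1.64e-18 to 4.85e-05. FOSL2 (-1.19 ± 0.06), FOSL1 (-0.71 ± 0.08), JUN (-0.48 ± 0.07), JUND (-0.36 ± 0.11) and JUNB (-0.21 ± 0.09) were lower. The last pair was unstable: JUND was lost without shNT replicate 3 (-0.22, adjusted p = 0.088) or shCDK12 with OHT replicate 3 (-0.25, 0.0812), and JUNB without the same libraries (-0.11, 0.321, and -0.09, 0.392). In the libraries labelled shCDK12 against shNT with OHT, 39.2% of genes were called and the members again split 5 to 5, with FOSB (1.84 ± 0.16), FOS (1.21 ± 0.13), EGR1 (1.12 ± 0.09), ATF3 (0.79 ± 0.13) and IER2 (0.76 ± 0.10) higher and FOSL2 (-1.93 ± 0.12), FOSL1 (-0.98 ± 0.13), JUND (-0.60 ± 0.17), JUNB (-0.47 ± 0.11) and JUN (-0.31 ± 0.10) lower. JUN was lost there without any 1 of the shCDK12 libraries (adjusted p = 0.0821, 0.0868 and 0.108), and JUND without shCDK12 replicate 1 (0.0647). With length and GC trends removed, JUN (-0.14, adjusted p = 0.22) and JUND (-0.37, adjusted p = 0.0657) were no longer called, which leaves 5 higher and 3 lower.

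When the groups were ordered by a member's level, FOSL1 and FOSL2 had 3 of 3 neighbouring pairs of groups past the threshold. FOS, FOSB, ATF3, EGR1, IER2 and JUND had 2 of 3, JUN had 1 and JUNB had no such pair. The pairs that did not pass were the groups with OHT in FOS, ATF3, EGR1 and IER2, shNT and shNT with OHT in FOSB, shNT with OHT, shNT and shCDK12 in JUN, and the shCDK12 libraries and shNT in JUND. The order was taken from the same values, so these counts only describe the members. Over all genes 9.11% were higher and 8.27% lower in shNT with OHT against shNT, and 31.3% and 30.6% in shCDK12 against shNT. With OHT in the shCDK12 libraries they were 25.5% and 23.6%, and between the groups with OHT 22.7% each way. In shCDK12 with OHT against shNT 55.9% were called, and in shCDK12 against shNT with OHT 39.2%.

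Across genes, levels are compared per kilobase of gene span. EGR1 was the highest member in every group, at 391 CPM per kb in shNT, 571 in shNT with OHT, 1215 in the libraries labelled shCDK12 and 515 in those labelled shCDK12 with OHT. JUNB, the shortest member with 1830 bases, followed in shNT (287) and shNT with OHT (365), while IER2 was second in the libraries labelled shCDK12 (293), all by span. FOSB was among the lowest, at 5.38 CPM per kb in shNT and 26.8 in the libraries labelled shCDK12. Apart from the first place of EGR1, most places depended on the length used. By exonic length FOSL1 ranked 2 and JUNB 3 in shNT, and IER2 went from 4 to 6. ATF3 spans 55371 bases, has 3998 exonic bases and ranked 10 by span and 7 by exonic length in shNT. The feature that was counted, exon or whole gene, is not given in the sources used here.

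Over the 12 libraries, log2 levels of FOS and EGR1 had a Pearson r of 0.959, EGR1 and IER2 of 0.978, and FOSB and FOSL2 of -0.984. JUN and FOSL1 had 0.913, and JUN and EGR1 0.05. These values describe libraries that share groups and depth, and they carry no test. By the same measure, the genes outside the members most like each were LOC730101, MED26 and MTURN for FOS (from 0.973 to 0.977), MEX3B, ING1 and SNHG12 for FOSB (0.982 to 0.988), and MED26, TMEM33 and ZBTB2 for EGR1 (0.973 each). For IER2 they were SNHG10, RPL27A and MAP3K21 (0.975 to 0.984), and for ATF3 TNF, HLA-B and REPIN1 (0.969 to 0.992). FOSL2 was most like SEMA7A, TENM2 and DBNL (0.993 to 0.996) and FOSL1 most like HMGA1 (0.99) and C11orf24 (0.985). JUN was most like the histone genes H4C16 and H2BC12 and PHRF1 (0.971 to 0.982), with the reads of histone genes uncertain among their near-identical copies, JUNB most like MBD3, YIPF2 and KCNF1 (0.932 to 0.95) and JUND most like TMEM259, INTS11 and ALG1 (0.931 to 0.936).

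The partners and targets of the members were read from lists written from general knowledge, with earlier results of these data known. Their counts therefore describe these lists and are no independent evidence. Of 35 other immediate-early genes, 13 rose and 2 fell in shNT with OHT (32 tested, median 0.19), beside 9.11% higher and 8.27% lower over all genes. DUSP2, a nuclear MAP kinase phosphatase, rose by 1.32 ± 0.10 on the log2 scale (adjusted p = 2.58e-06) and ARC, a synaptic activity gene, by 1.05 ± 0.10 (adjusted p = 1.12e-05), while PHLDA1 changed by -1.18 ± 0.19 (adjusted p = 0.00085). In the libraries labelled shCDK12 against shNT, 19 rose and 8 fell (33 tested, median 0.33), beside 31.3% and 30.6%. The orphan nuclear receptor gene NR4A3 rose by 1.97 ± 0.19 (adjusted p = 1.2e-09) and ARC by 1.89 ± 0.08 (adjusted p = 4.73e-18), and ZFP36L1, which destabilizes AU-rich transcripts, changed by -2.37 ± 0.08 (adjusted p = 1.19e-19). With OHT in the shCDK12 libraries 10 rose and 11 fell (34 tested), near the 25.5% and 23.6% over all genes, with the matricellular genes CCN1 (0.88 ± 0.08) and CCN2 (0.82 ± 0.08) up and ZFP36L2 (-1.40 ± 0.08) and ARC (-1.02 ± 0.07) down. Between the groups with OHT, 9 were higher, BTG1 (1.13 ± 0.20) first, and 11 lower, ZFP36L1 (-1.25 ± 0.09) first, of 33 tested, beside 22.7% each way over all genes.

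In the libraries labelled shCDK12 against shNT, most AP-1 target genes fell. Of 18 tested, 15 fell and 1 rose (median -1.13), beside 30.6% lower and 31.3% higher over all genes. PLAU, the urokinase gene, changed by -3.88 ± 0.14 (adjusted p = 1.08e-18) and TIMP1, an inhibitor of matrix metalloproteinases, by -2.84 ± 0.09 (adjusted p = 1.27e-20). VEGFA, the angiogenic growth factor, was the gene that rose (0.59 ± 0.09, adjusted p = 9.87e-07). With OHT in the shCDK12 libraries, 14 of 18 targets rose and 1 fell (median 0.73). The shares over all genes were 25.5% higher and 23.6% lower, and PLAU was at 2.37 ± 0.16 and TIMP1 at 1.55 ± 0.08. In shNT with OHT against shNT 2 rose, VEGFA (0.90 ± 0.12) and CXCL8 (0.85 ± 0.19), 7 fell and 9 did not pass. Over all genes 9.11% were higher and 8.27% lower. Among the targets that fell were the collagenase gene MMP13 at -1.87 ± 0.32 and PLAU at -1.80 ± 0.17. Between the groups with OHT 3 were higher, among them MMP13 (2.04 ± 0.25) and the heme oxygenase gene HMOX1 (1.34 ± 0.13), and 10 lower, among them TGFB1 (-0.99 ± 0.15). Over all genes 22.7% were called each way there. The 6 mesenchymal and osteoblast markers tested, beside the same shares over all genes, moved likewise. In shCDK12 against shNT 5 fell and 1 did not pass, and with OHT in the shCDK12 libraries 4 rose and 2 did not pass. The part of the members in the changes of the targets was not tested. Fewer cells of a kind and less RNA per cell cannot be told apart in such bulk libraries.

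Upstream of the members, many MAP kinases and SRF partners fell in the libraries labelled shCDK12. Against shNT, 14 of 25 tested fell and the other 11 did not pass (median -0.53), beside 30.6% of all genes lower and 31.3% higher. The ternary complex factor ELK3 was at -1.56 ± 0.15 (adjusted p = 4.61e-10) and the SRF coactivator MRTFA at -1.19 ± 0.13 (adjusted p = 5.82e-09). With OHT in these libraries 14 of 25 rose and the other 11 did not pass (median 0.28), beside 25.5% of all genes higher and 23.6% lower. In shNT with OHT against shNT SRF rose (0.56 ± 0.13, adjusted p = 0.00793) and 21 of 23 tested did not pass, beside 9.11% of all genes higher and 8.27% lower. Of 8 feedback inhibitors tested, 1 rose and 1 fell with OHT in shNT, beside 9.11% and 8.27% over all genes. In shCDK12 against shNT 2 rose and 2 fell (median 0.02), beside 31.3% and 30.6%. With OHT in the shCDK12 libraries 3 rose and 1 fell, beside 25.5% and 23.6%. Between the groups with OHT 3 were higher and 1 lower, beside 22.7% each way. Among them the MAP kinase phosphatase gene DUSP7 was at 0.55 ± 0.15 with OHT in shNT and 0.77 ± 0.09 in shCDK12 against shNT. It was at -0.85 ± 0.08 with OHT in the shCDK12 libraries and at -0.65 ± 0.14 between the groups with OHT. SPRY2, an inhibitor of receptor signalling, was at -0.60 ± 0.09 in shCDK12 against shNT and at 0.83 ± 0.08 with OHT in the shCDK12 libraries. Of 10 other bZIP factors tested, 2 rose and 8 did not pass with OHT in shNT, beside 9.11% of all genes higher and 8.27% lower. In shCDK12 against shNT 3 rose and 4 fell (median -0.17), near the 31.3% and 30.6% over all genes. With OHT in the shCDK12 libraries 6 rose and 2 fell, beside 25.5% of all genes higher and 23.6% lower. Between the groups with OHT 1 was higher and 3 lower, beside 22.7% each way over all genes. BATF3 (1.79 ± 0.31 and 1.79 ± 0.24) and the stress factor gene DDIT3 (0.99 ± 0.20 and 1.42 ± 0.13) rose both with OHT in shNT and in shCDK12 against shNT, and both fell with OHT in the shCDK12 libraries (-1.27 ± 0.16 and -0.37 ± 0.09). JDP2, a repressor of AP-1, changed by -2.31 ± 0.17 in shCDK12 against shNT.

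**Figure D5:**
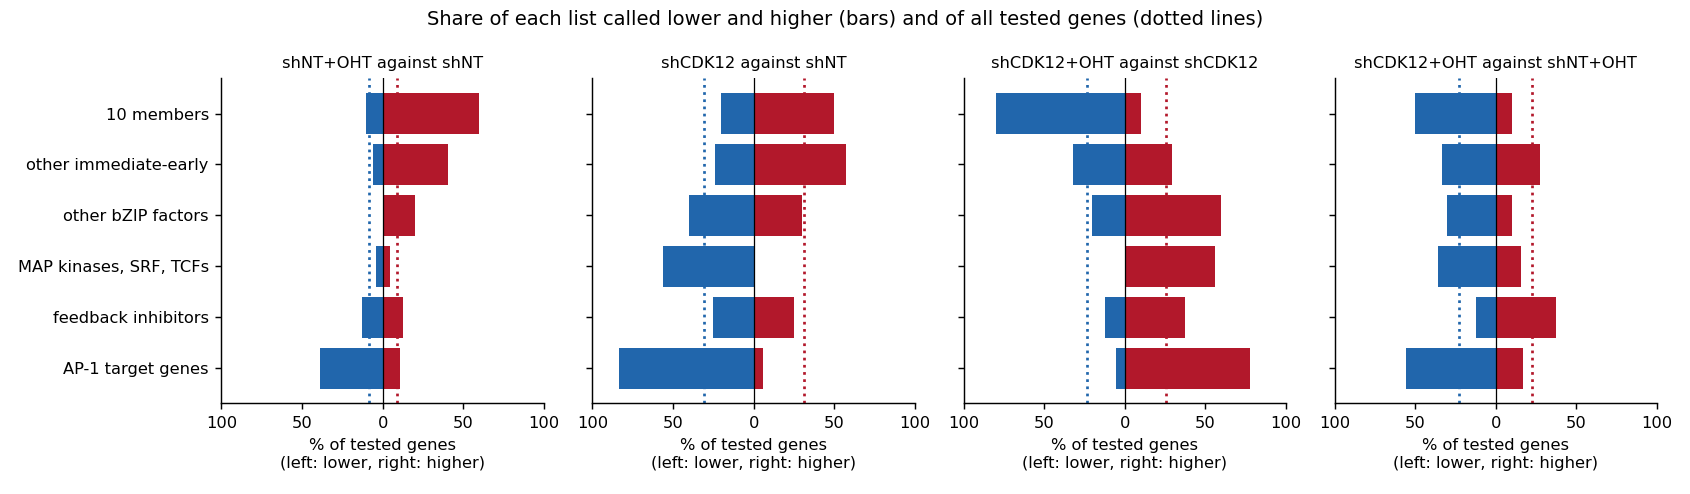
Share of the tested genes of each list called higher (right, red) and lower (left, blue) at an adjusted p under 0.05, with dotted lines at the share of all tested genes. In shCDK12 against shNT 15 of 18 AP-1 target genes are lower, while 5 of 10 members are higher, 2 lower and 3 not called. In shCDK12 with OHT against shCDK12 14 of 18 targets are higher, while 8 of 10 members are lower and 1 is higher.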

How the data were processed

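The authors deposited 1 table of raw counts per gene by Entrez identifier, without normalization, for 12 EU-seq libraries (3 per group). Per the labels, STAR 2.7.5c, featureCounts 1.4.5-p1 and the build hg19 were used; the role of strand and the counted feature are not given in the sources used here. Symbols were matched by identifier to RefSeq for 23284 rows. The mouse RNA added to each sample (10 µg to 40 µg of human RNA) was not used here, so a change in total newly made RNA is not seen.

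Counts were tested with edgeR 4.0.16 (R 4.3.3), quasi-likelihood test, TMM, keeping genes whose normalized count averaged over 32 in the fitted libraries, Benjamini-Hochberg adjustment over all genes, threshold 0.05. Pairs of groups were fitted alone and the interaction on all 12 libraries. Errors of fold changes are standard errors. Simulated 2-fold changes were recovered in 147 of 195 genes for shNT with OHT against shNT (6 false calls) and in 117 of 197 for the interaction (9 false calls). Replicates differed by 2.69 to 9.31 times the sampling noise (chi-square per degree of freedom), so none was a duplicate. CPM used TMM factors of the 12 libraries. Lengths are RefSeq spans and GENCODE exonic unions.

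The members and lists were chosen with earlier results of these data known. Genes outside the members were named by rule: in each list and comparison of 1 factor the 2 largest rises and 2 largest falls past the threshold without overlap, of which some are given, and the 3 genes with the highest r per member. Some genes that the rule names are not reported here. Alternatives were DESeq2 1.42.0, other normalizations and filters, a replicate block, thinning to the smallest total, removal of length and GC trends, a single fit, and leaving out each library.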

Additional observations from a re-analysis of the deposited data

Results flagged for a closer look

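The effect of OHT in the shCDK12 libraries differed from that in shNT for all 10 members, by the interaction term of edgeR's quasi-likelihood test adjusted over all genes (log2, shCDK12 minus shNT). By the same test 23.2% of all tested genes were higher and 21.9% lower. Genes spanning under 10 kb had a median of -0.278. The differences were -2.193 in ATF3, -1.785 in EGR1, -1.696 in FOSB, -1.537 in FOS, -1.419 in JUND, -1.318 in IER2, -1.165 in FOSL1, -0.653 in JUN, -0.434 in JUNB and 1.735 in FOSL2. That of JUNB did not pass with several libraries left out, with upper-quartile normalization (adjusted p = 0.0531) or with thinning (0.0687), and turned to 0.076 with length and GC trends removed, where JUN was at -0.301. The differences rest on libraries labelled shCDK12 whose CDK12 counts did not differ from shNT beyond the spread between libraries. These counts are of newly made RNA and cannot show whether CDK12 was silenced. Groups of 3 libraries are too small for the test of single outlying libraries.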

How the results depend on the processing

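The count of members called stayed within 1.5 times its main value in all alternatives of all 7 comparisons. Of 682 results under another setting 646 kept direction and side of the threshold, 21 lost the call, 7 gained it and 8 changed sign. Of 528 with a library left out 492 kept both, 25 lost the call, 6 gained it and 5 changed sign. The sign changed with length and GC trends removed for JUN (-0.051) and JUNB (-0.017) in shNT with OHT against shNT, JUNB in shCDK12 with OHT against shCDK12 (0.11) and in the interaction (0.076), EGR1 (0.141) and IER2 (0.284) between the groups with OHT, and CDK12 in shCDK12 against shNT (0.051); the cause was not tested. IER2 between the groups with OHT was 0.013 with no filter. With 1 library left out, FOS ran from -0.011 to 0.167 and IER2 from -0.122 to 0.059 between the groups with OHT, JUNB from -0.164 to 0.035 in shCDK12 with OHT against shCDK12, and CDK12 from -0.1 to 0.007 in shCDK12 against shNT. With every library thinned to 1251695 counts, FOS with OHT in shNT (0.322, adjusted p = 0.213), FOSL1 in shCDK12 against shNT (-0.24, 0.169), JUND with OHT in shCDK12 (-0.488, 0.213), JUN in shCDK12 against shNT with OHT (-0.258, 0.147), JUNB (-0.205, 0.236) and JUND (-0.274, 0.438) in shCDK12 with OHT against shNT and JUNB in the interaction (-0.479, 0.0687) lost their calls. Thinning also cut the genes called, to 776 in shNT with OHT against shNT (from 1785), 2991 in shCDK12 against shNT (from 7258), 1051 with OHT in shCDK12 (from 6139), 1741 between the groups with OHT (from 5295), 1826 in shCDK12 with OHT against shNT (from 6696), 1815 in shCDK12 against shNT with OHT (from 4410) and 1766 in the interaction (from 5271). Between the groups with OHT 3509 and 3501 genes were called without shCDK12 with OHT replicate 1 and 2, and in shCDK12 against shNT with OHT 2853 and 2894 without shCDK12 replicate 2 and 3.

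Deviations of same-numbered libraries from their group means had r from -0.092 to 0.304 (median 0.0275), over 0.1 in 2 of 18 pairs. Differently numbered libraries had a median of -0.0185, with 0 of 36 pairs over 0.1. Both pairs over 0.1 joined shCDK12 and shNT with OHT, at replicate 1 (0.275) and replicate 2 (0.304). Whether replicate numbers pair the libraries of those groups was not tested. With the replicate number as a block, 6 members were called in shNT with OHT against shNT (FOS lost, adjusted p = 0.0603), 7 in shCDK12 against shNT, 9 in shCDK12 with OHT against shCDK12, 6 between the groups with OHT, 9 in shCDK12 with OHT against shNT (JUNB lost), 10 in shCDK12 against shNT with OHT and 10 in the interaction. Over all genes the block fits called 1696 of 10272, 7428 of 11718, 6197 of 12519, 4796 of 11668, 6488 of 11981, 5102 of 11238 and 5382 of 11699 in that order.

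Depth limits the shNT with OHT group most, where 1 library has 1251695 counts.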
